A study of Homo sapiens with 12 samples.

Results

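The genes described here are 10 read-outs of the ERK pathway: the MAP kinase phosphatases DUSP1, DUSP4, DUSP5 and DUSP6, the Sprouty-family inhibitors SPRY2, SPRY4 and SPRED1, and the ERK-induced genes EGR1, FOSL1 and PHLDA1. They were taken by name, with earlier results of these data known. The platform annotation assigned 25 probe sets to these genes alone, and the probe set of highest mean signal over the 12 arrays stood for each gene. All 10 passed the filter on dim probe sets, so they are 10 of 14061 genes tested and of 19775 genes with such a probe set. RNA levels were read from Affymetrix U133 Plus 2.0 arrays for SW780, a human bladder carcinoma line kept in Leibovitz L-15 medium, and for A549, a human lung adenocarcinoma line kept in RPMI1640. The labels give culture with or without CO2 without naming the line for each. In both lines cells were transfected with 100 nM of siKDM3A, which targets the H3K9 demethylase KDM3A, or of siFFluc or siEGFP, which do not target it and serve as controls here. Each of the 6 groups of line and siRNA has 2 arrays, from RNA taken after 24 h. All groups were thus transfected by lipofection, and no untransfected cells are among the samples. The same siKDM3A label covers all knockdown arrays, and nothing in them shows that the 2 arrays of a group came from different cultures. The p-values therefore reflect variation between arrays that may be technical in origin.

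ERK is the last kinase of the RAF-MEK-ERK cascade, which growth factor receptors switch on through RAS. Active ERK induces transcription factors such as EGR1 and FOSL1 and, at the same time, its own brakes. Dual-specificity phosphatases of the DUSP family remove the phosphates that keep MAP kinases active, and Sprouty and SPRED proteins damp the pathway between the receptor and RAF. The transcript levels of these genes are therefore widely read as a measure of ERK output, although other pathways induce several of them too.

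RefSeq windows around the annotated start, on GRCh38.p14, were at hand for 7 members, with 9 windows in all, and for none of DUSP4, DUSP5 and FOSL1. Shown are the 250 bases before the start for the 4 genes that passed the test under siKDM3A in A549, since these carry the knockdown result in that line. They lie at chr5:138465229-138465478 on the plus strand for EGR1, and on the minus strand at chr5:172771196-172771445 for DUSP1, chr12:76031777-76032026 for PHLDA1 and chr13:80341127-80341376 for SPRY2. For SPRY2 this is 1 of 3 windows, shown because it is the one of the 3 with matches. Each is written 5′ to 3′ along the gene's strand. Capitals mark CArG boxes (the element bound by SRF, which works with ETS partners that ERK phosphorylates), the CRE core TGACG and the ETS core CCGGAA, on either strand.
EGR1: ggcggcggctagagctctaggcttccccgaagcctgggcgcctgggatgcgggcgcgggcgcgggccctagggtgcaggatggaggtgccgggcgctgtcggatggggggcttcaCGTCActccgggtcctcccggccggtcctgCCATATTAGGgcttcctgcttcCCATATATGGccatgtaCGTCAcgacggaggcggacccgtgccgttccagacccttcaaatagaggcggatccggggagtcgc
DUSP1: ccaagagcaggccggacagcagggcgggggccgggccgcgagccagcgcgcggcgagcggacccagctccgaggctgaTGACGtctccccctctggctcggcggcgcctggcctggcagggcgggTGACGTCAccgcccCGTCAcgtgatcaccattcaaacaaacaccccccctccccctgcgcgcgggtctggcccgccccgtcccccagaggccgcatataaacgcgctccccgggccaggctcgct
PHLDA1: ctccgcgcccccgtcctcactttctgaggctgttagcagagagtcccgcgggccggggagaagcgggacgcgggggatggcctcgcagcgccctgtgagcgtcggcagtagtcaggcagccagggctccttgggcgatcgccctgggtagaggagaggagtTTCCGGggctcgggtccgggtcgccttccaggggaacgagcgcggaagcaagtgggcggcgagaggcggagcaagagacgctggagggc
SPRY2: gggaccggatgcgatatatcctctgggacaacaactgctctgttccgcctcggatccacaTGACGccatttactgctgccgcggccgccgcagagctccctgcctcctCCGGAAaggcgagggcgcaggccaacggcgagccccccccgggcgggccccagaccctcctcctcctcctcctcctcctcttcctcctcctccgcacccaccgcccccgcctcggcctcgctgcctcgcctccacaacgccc
Motifs were searched in 300-base windows, which add the 50 bases after the start, on both strands. The EGR1 window held 2 CArG boxes, an element in 1.29% of 35116 windows of all genes. EGR1 also held 2 CRE cores, which occur in 24.6% of windows. The DUSP1 window held the full CRE, TGACGTCA, found in 1.85% of windows, and 4 matches of TGACG, 2 of which make up that CRE. The PHLDA1 window held 1 match of CCGGAA, found in 17.2% of windows. The SPRY2 window held 1 CCGGAA and 1 TGACG. The SPRY4 window held 1 TGACG, and the windows of DUSP6 and SPRED1 held none of these letters. The AP-1 site TGANTCA, found in 7.71% of all windows, was in none of the 9. These are matches of letters and say nothing of binding in these cells.

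All arrays had been scaled by the authors to the same trimmed mean. Their median signal still ranged between 50.3 and 59.1. The siKDM3A arrays stood above the controls of their line in SW780 (58.1 and 54.3 against 50.3 to 54.2) and below them in A549 (53.1 and 51.9 against 57.4 to 59.1), and the part of this shift in the results was not tested. The 3′ to 5′ ratio of the beta-actin control probe sets also set the siKDM3A arrays apart, with 1.51 and 1.61 under siKDM3A against control values of 1.39 to 1.44 for SW780, and 1.16 and 1.19 against 1.20 to 1.29 for A549; its part was not tested either. The 2 arrays of each group agreed across genes, which are not independent of each other, with r between 0.982 and 0.989. KDM3A itself read 197 and 223 in siKDM3A arrays of SW780, against 359 to 433 with the control siRNAs, and 692.5 and 712 in siKDM3A arrays of A549, against 1299.7 to 1519. The target was thus at 53.3% of the control mean in SW780 and 50.5% in A549. All 5 epithelial markers had a mean signal of at least 100 in both lines. Of 8 urothelial markers 6 did in SW780 and 4 in A549, with a summed signal of 27315 to 35418 in SW780 and 3409 to 4025 in A549. Lung alveolar markers were nearly absent from SW780 and from A549, the lung line, with 1 of 6 at that level in either line, and NKX2-1 at a mean of 9 in A549. No leukocyte marker of 4 reached 100 in either line, and 2 of 6 fibroblast markers did in both. Under siKDM3A, 2 of 5 epithelial and 1 of 7 urothelial markers tested were lower in SW780, and none of either list was called in A549 (limma; 1 of each at an unadjusted p under 0.05). Of 3 lung alveolar markers tested, 1 was lower in each line. Over all genes tested, 6.15% were lower in SW780 and 6.35% in A549. Between controls, 3 of 5 epithelial markers were higher with siFFluc than with siEGFP in SW780, where 2.97% of all genes were. The part of these marker differences in the results was not tested.

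Most of these ERK output genes differed between the lines without KDM3A knockdown, as did most genes tested. The deposited MAS5 signals are linear brightness values, which can be compared between arrays for 1 probe set but not between genes. Tests are limma's moderated tests on log2(signal + 16), with p-values adjusted by Benjamini-Hochberg over all 14061 genes, and a gene is called where the adjusted p is under 0.05. Between the 4 control arrays of each line, 9 of 10 members were called, and 68.9% of all genes were. The count of members is not read as more than that background. EGR1 and DUSP6 were higher in SW780 (30.1% of all genes were), and DUSP1, DUSP4, DUSP5, SPRY2, SPRED1, FOSL1 and PHLDA1 were lower (38.8% of all genes were). The median difference of the 10 was -0.99 on the log2(signal + 16) scale, against -0.11 over all genes tested. Line, medium and CO2 cannot be told apart here, and in bulk RNA fewer cells that express a gene and less RNA per cell cannot be told apart either.

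DUSP1, an inducible nuclear phosphatase of several MAP kinases, showed the widest gap of the 10. Its signal was 2531 and 2572 with siFFluc and 2414 and 2404 with siEGFP in SW780. In A549 it was 11244 and 10484 with siFFluc and 11568 and 12606 with siEGFP. No control array of SW780 came near those of A549, and the difference was -2.20 ± 0.05 (SE; limma, adjusted p = 3.86e-13). EGR1, a zinc finger transcription factor that is among the first genes ERK induces, ran the other way. It read 1608 and 1857 with siFFluc and 1787 and 1989 with siEGFP in SW780, against 798 and 828 with siFFluc and 729 and 681.5 with siEGFP in A549. The ranges of the lines were far apart, and the log2 difference was 1.24 ± 0.07 (limma, adjusted p = 1.70e-09).

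The other phosphatases did not move as a block. DUSP4, a second nuclear MAP kinase phosphatase, averaged 1966 ± 210 in SW780 controls and 4021 ± 235 in A549 controls (SD, n = 4 each), a log2 difference of -1.03 ± 0.06 (limma, adjusted p = 6.61e-09). DUSP5, which is nuclear and selective for ERK, averaged 1204 ± 349 in SW780 and 2398 ± 566 in A549 (adjusted p = 1.64e-06 in limma). DUSP6, the cytoplasmic ERK-selective phosphatase that is often taken as the most direct read-out of ERK, was the exception among them. It averaged 1357 ± 309 in SW780 controls and 1029 ± 72.3 in A549 controls, a log2 difference of 0.37 ± 0.09 (limma, adjusted p = 0.00186). With siEGFP alone DUSP6 read 1702 and 1533.5 in SW780 against 1025 and 1062 in A549. With siFFluc as the only control it was 0.11 with an adjusted p of 0.441.

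Among the Sprouty family, SPRY2 was at 397 ± 27.9 in SW780 controls and 805 ± 26.9 in A549 controls, and SPRED1, which brings neurofibromin to RAS, was at 390.5 ± 54.4 in SW780 and 986 ± 61.7 in A549 (SD, n = 4 each). Both were lower in SW780, at -0.99 ± 0.09 and -1.31 ± 0.10 on the log2 scale (limma, adjusted p = 4.21e-07 and 6.81e-08). SPRY4 was the single member with no call, at 236 ± 33.6 in SW780 and 258 ± 36.2 in A549, a log2 difference of -0.12 ± 0.14. FOSL1, the AP-1 subunit also called FRA-1, averaged 1502 ± 407 in SW780 and 2998 ± 883 in A549, and its log2 difference was -0.98 ± 0.06 (limma, adjusted p = 1.03e-08). PHLDA1, a pleckstrin homology-like protein induced by ERK, was at 7609 ± 106 in SW780 and 10084 ± 974 in A549, a log2 difference of -0.40 ± 0.05 at its brightest probe set (limma, adjusted p = 9.15e-06). The sign of the PHLDA1 difference depended on the probe set: 225842_at read 5743 to 6935 in SW780 controls and 2682 to 2886 in A549 controls, a log2 difference of 1.16. Of its 6 probe sets, 3 were called higher in SW780 (217999_s_at at 0.28 and 217997_at at 0.16 besides), 217996_at alone was called lower, and 218000_s_at and 217998_at were not called.

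**Figure D1:**
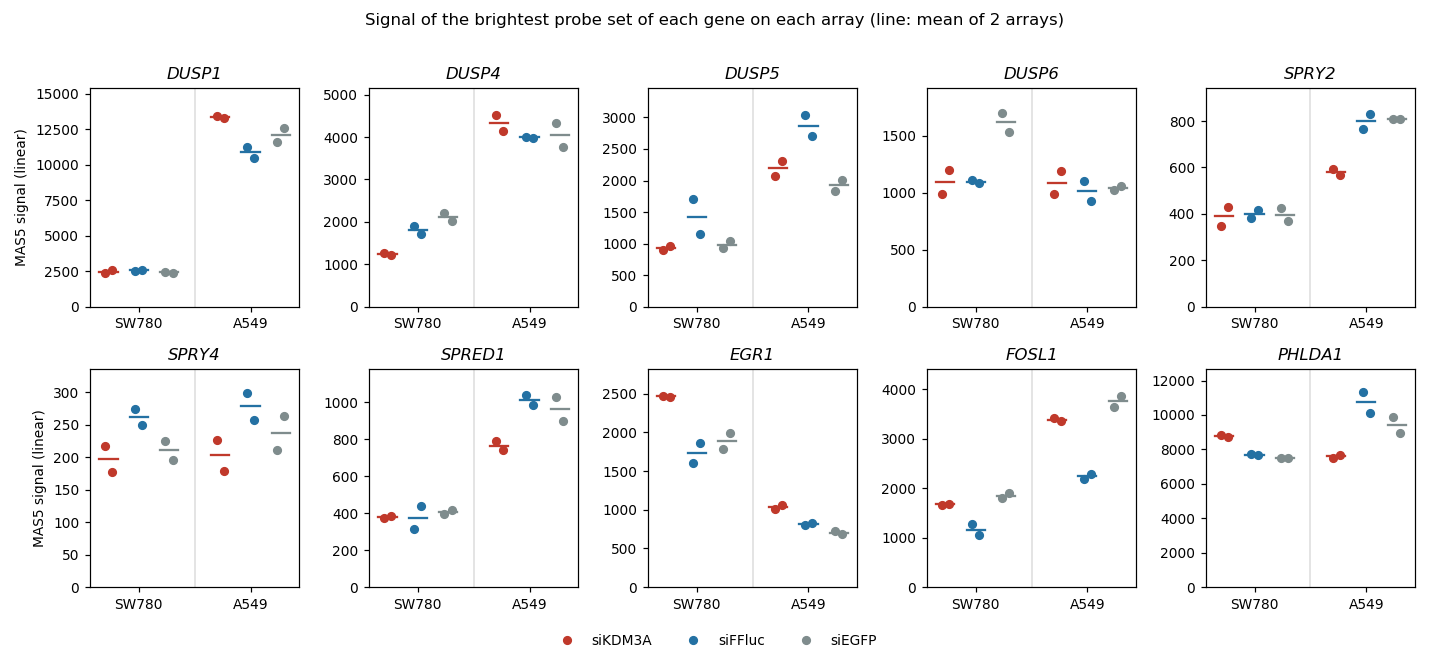
MAS5 signal (linear scale, starting at 0) of the brightest probe set of each of the 10 genes; each point is 1 array, each short line the mean of 2 arrays, with siKDM3A, siFFluc and siEGFP from left to right within SW780 and A549. DUSP1 lies between 2342 and 2572 in SW780 and between 10484 and 13420.1 in A549, EGR1 is higher with siKDM3A in both lines, and FOSL1 is lower with siFFluc than with siEGFP in both lines.

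In SW780, siKDM3A raised EGR1 and, at its brightest probe set alone, PHLDA1 and lowered DUSP4, so 3 of 10 members passed the test, against 11.8% of all genes. By direction these were 2 higher (5.68% of all genes) and 1 lower (6.15%). In A549, siKDM3A raised EGR1 and DUSP1 and lowered PHLDA1 and SPRY2, which made 4 of 10 against 11.7% of all genes, with 2 higher (5.33%) and 2 lower (6.35%). EGR1 was the only member called in the same direction in both lines. The members had no common direction: their median change was -0.03 in SW780 and -0.01 in A549, against 0.03 and -0.02 over all genes.

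The scaling of the arrays bears on directions. With arrays scaled to equal medians, the median change of all genes moved to -0.07 in SW780 and to 0.12 in A549. The calls over all genes then split into 282 higher and 1249 lower in SW780, against 798 and 865 as deposited, and into 2210 higher and 410 lower in A549, against 749 and 893 as deposited. Under that scaling EGR1 stayed called and positive in both lines (0.34 in SW780 and 0.60 in A549), DUSP4 stayed called at -0.74 in SW780 and PHLDA1 at -0.25 in A549. PHLDA1 in SW780 (0.11, adjusted p = 0.431) and SPRY2 in A549 (-0.31, adjusted p = 0.106) lost their calls, and FOSL1 in A549 gained one (0.38, adjusted p = 0.0130).

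DUSP4 gave the largest knockdown change of these 4 phosphatases. In SW780 it read 1271 and 1229 with siKDM3A, against 1906 and 1717 with siFFluc and 2217 and 2023 with siEGFP. Both knockdown arrays lay below all 4 controls, at 63.6% of the control mean, and the log2 change was -0.64 ± 0.08 (limma, adjusted p = 2.70e-04). In A549, DUSP4 read 4516 and 4137 with siKDM3A, against 4009.5 and 3974 with siFFluc and 4335 and 3766.5 with siEGFP. These ranges overlapped, and the log2 change was 0.11 ± 0.08 (adjusted p = 0.442).

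DUSP1 read 2342 and 2553 with siKDM3A in SW780, inside or just below its controls (2404 to 2572), with a log2 change of -0.02 ± 0.06. In A549 it read 13420.1 and 13273 with siKDM3A, against 11244 and 10484 with siFFluc and 11568 and 12606 with siEGFP. Both knockdown arrays were above all controls, and the log2 change of 0.22 ± 0.06 passed the test (limma, adjusted p = 0.0347). This call was lost against siEGFP alone (adjusted p = 0.258), with quantile normalization (0.0792), on the second-brightest probe set (0.473), with no trend in the prior variance (0.111) and without any of 6 single arrays: siEGFP 1 (0.0925), siFFluc 2 (0.108), siKDM3A 1 (0.218) or siKDM3A 2 (0.190) of A549, and siEGFP 1 (0.0508) or siEGFP 2 (0.0508) of SW780.

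DUSP5 read 906 and 963 with siKDM3A in SW780, against 1710.3 and 1146 with siFFluc and 925 and 1035.5 with siEGFP. The knockdown arrays matched siEGFP and lay below siFFluc; the log2 change against both controls was -0.32 ± 0.13 (adjusted p = 0.133), and without siFFluc 2 of SW780 it was -0.46 with an adjusted p of 0.00322. In A549, DUSP5 read 2079 and 2317 with siKDM3A, against 3039.6 and 2699.5 with siFFluc and 1840.4 and 2012 with siEGFP. Here too the knockdown arrays lay below siFFluc, and the change of -0.10 ± 0.13 was not called (adjusted p = 0.709).

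DUSP6 read 988 and 1196 with siKDM3A in SW780, against 1110.2 and 1082 with siFFluc and 1702 and 1533.5 with siEGFP. It stood with siFFluc and below siEGFP, and the change against both, -0.29 ± 0.11, was not called (adjusted p = 0.102). In A549 its 6 arrays ran between 930.3 and 1191 with no order among siRNAs, and the change was 0.08 ± 0.11 (adjusted p = 0.729).

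SPRY2, an ERK-induced inhibitor of receptor signalling, fell in A549. It read 593 and 567 with siKDM3A, against 767 and 831.5 with siFFluc and 811 and 809.8 with siEGFP. The knockdown arrays were well below every control, at 72.1% of the control mean, with a log2 change of -0.46 ± 0.11 (limma, adjusted p = 0.0184). The adjusted p was 0.0589 without siFFluc 2, 0.102 without siKDM3A 1 and 0.159 without siKDM3A 2 of A549, and 0.106 when arrays were scaled to equal medians. In SW780, SPRY2 read 349 and 429.5 with siKDM3A, against 380.2 and 417 with siFFluc and 425 and 367 with siEGFP, which overlap (change -0.03 ± 0.11).

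SPRED1 read 375 and 387 with siKDM3A in SW780, within its controls (313 to 437). A549 arrays gave SPRED1 signals of 788 and 739 with siKDM3A, against 1036 and 983 with siFFluc and 1026 and 900.2 with siEGFP. All 4 controls lay above the knockdown arrays, but the change of -0.36 ± 0.12 missed the threshold (adjusted p = 0.0782). It passed without siFFluc 1 or siFFluc 2 of SW780 (adjusted p = 0.0154 and 0.0162). SPRY4, the dimmest member, read 217 and 177.5 with siKDM3A in SW780, against 275 and 249.5 with siFFluc and 225 and 196 with siEGFP. The A549 signals of SPRY4 were 226 and 179.6 with siKDM3A, against 299.5 and 258 with siFFluc and 211 and 263 with siEGFP. The groups overlapped in both lines, and the changes of -0.24 ± 0.17 and -0.32 ± 0.17 were not called.

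EGR1 rose in both lines at its brightest probe set. In SW780 it read 2473 and 2456 with siKDM3A, against 1608 and 1857 with siFFluc and 1787 and 1989 with siEGFP. In A549 it read 1013 and 1058 with siKDM3A, against 798 and 828 with siFFluc and 729 and 681.5 with siEGFP. No control array reached a knockdown array in either line, and EGR1 was at 136% of the control mean in each. The log2 changes were 0.45 ± 0.08 in SW780 and 0.44 ± 0.08 in A549 (limma, adjusted p = 0.00371 and 0.00348). The A549 call was lost without siKDM3A 2 of A549 (adjusted p = 0.0635) and depended on the probe set, as given further on.

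PHLDA1 had opposite changes at its brightest probe set, 217996_at; no other probe set was called higher in SW780, as given further on. In SW780 it read 8863 and 8743 with siKDM3A, against 7736 and 7657 with siFFluc and 7519 and 7524 with siEGFP. In A549 it read 7521 and 7661 with siKDM3A, against 11334.5 and 10142 with siFFluc and 9891 and 8970.4 with siEGFP. The knockdown arrays were above every control in SW780 and below every control in A549, with log2 changes of 0.21 ± 0.06 and -0.40 ± 0.06 (limma, adjusted p = 0.0438 and 0.00103). The SW780 call was lost under 14 of 25 alternatives, among them each control taken alone (0.0821 and 0.0911) and the removal of siEGFP 1 (0.0896), siEGFP 2 (0.0873), siKDM3A 1 (0.202) or siKDM3A 2 (0.157) of SW780, or of siKDM3A 1 (0.0755) or siKDM3A 2 (0.0754) of A549.

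FOSL1 read 1669 and 1682 with siKDM3A in SW780, against 1268 and 1051 with siFFluc and 1792 and 1896 with siEGFP. FOSL1 in A549 read 3417 and 3357 with siKDM3A, against 2193 and 2284 with siFFluc and 3646 and 3871 with siEGFP. In both lines the knockdown arrays lay between the controls, near siEGFP and well above siFFluc. The changes against both controls, 0.20 ± 0.08 in SW780 and 0.22 ± 0.08 in A549, were not called (adjusted p = 0.122 and 0.0797). Without siFFluc 1 of SW780 both were called (0.0119 in SW780 and 0.0156 in A549), and without siFFluc 2 of SW780 the A549 change was (0.0154).

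Counted by arrays alone, both siKDM3A arrays lay above all 4 controls for 2 members (EGR1 and PHLDA1) and below them for 1 (DUSP4) in SW780, where 28.6% of all genes had either pattern. In A549 they lay above for 2 (EGR1 and DUSP1) and below for 3 (PHLDA1, SPRY2 and SPRED1), where 36.9% of all genes had either pattern. Neither share of the members, 3 of 10 and 5 of 10, is read as more than that background.

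**Figure D2:**
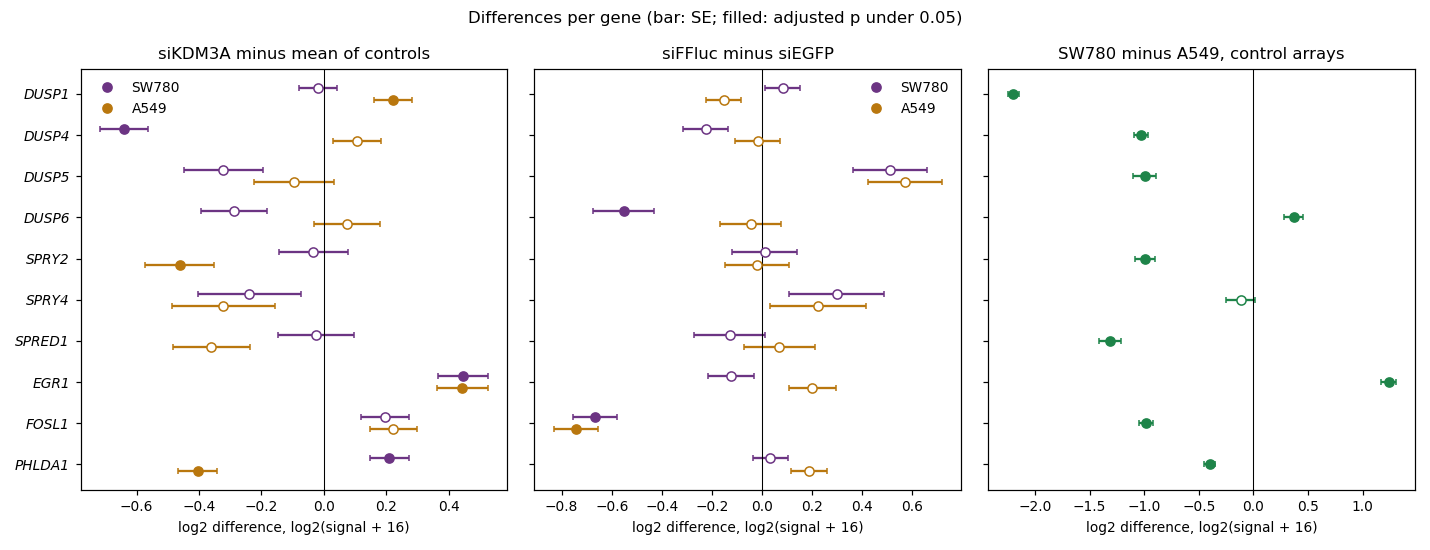
Log2 difference ± SE for each gene: siKDM3A minus the mean of both controls (left) and siFFluc minus siEGFP (middle), in SW780 (upper point) and A549 (lower point), and SW780 minus A549 over control arrays (right); filled points have an adjusted p under 0.05. PHLDA1 and DUSP4 lie on different sides of 0 in the lines on the left, FOSL1 is near -0.7 in both lines in the middle, and 7 genes are called below 0 on the right.

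At the brightest probe set of each gene, the knockdown response differed between SW780 and A549 for 2 of 10 members, PHLDA1 and DUSP4. Over all genes 2.75% differed. For PHLDA1 the SW780 change exceeded the A549 change by 0.61 ± 0.09 (limma, adjusted p = 0.00499), a direction called for 1.78% of all genes. For DUSP4 it was lower by a log2 difference of -0.75 ± 0.11 (adjusted p = 0.00553), a direction called for 0.974% of all genes. The other 8 members had adjusted p-values of 0.163 or more for this difference. EGR1 had a difference of 0.00 ± 0.11 at its brightest probe set. SPRY2, called in A549 and not in SW780, had a difference of 0.43 ± 0.16 that missed the threshold (adjusted p = 0.171). DUSP1 likewise had a difference of -0.24 ± 0.09 (adjusted p = 0.163). Without a trend in the prior variance the adjusted p of both PHLDA1 and DUSP4 was 0.0544. Neither difference was called on any other probe set of its gene. Those values lay between -0.32 and 0.47 for PHLDA1 and were -0.25 and -0.14 for DUSP4.

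Some of these genes also set the controls apart from each other. FOSL1 was lower with siFFluc than with siEGFP in both lines, by log2 differences of -0.67 ± 0.09 in SW780 (limma, adjusted p = 0.00128) and -0.74 ± 0.09 in A549 (adjusted p = 2.96e-04). It was called in every alternative in both lines. In SW780, 5.57% of all genes differed between the controls, 2.97% higher and 2.6% lower with siFFluc; in A549, 2.92% did, 1.43% higher and 1.49% lower. DUSP6 was the only other member called, at -0.55 ± 0.12 in SW780 (adjusted p = 0.0226); in A549 it was -0.05 ± 0.12. That call ended without siEGFP 1 (0.131), siEGFP 2 (0.0822) or siFFluc 1 (0.0632) of SW780. DUSP5 ran the other way, at 0.51 ± 0.15 in SW780 and 0.57 ± 0.15 in A549. Both siFFluc arrays of DUSP5 were above both siEGFP arrays in each line, but neither difference was called (adjusted p = 0.0654 and 0.0635). Without siFFluc 2 of SW780 both were called (0.00122 in SW780 and 0.00341 in A549), and without siFFluc 1 of SW780 the A549 one was (0.00349). The difference between the controls was not called as different between SW780 and A549 for any member in limma, where 0.0213% of all genes were. At an unadjusted p under 0.05, DUSP1 (0.0350), EGR1 (0.0282) and DUSP6 (0.0118) would have passed that comparison.

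Since siKDM3A was set against the mean of controls that differ, each control was also used alone. These comparisons share the siKDM3A arrays with each other, and the control arrays with the comparison of controls. In SW780, 6.19% of all genes were called against siEGFP and 14.2% against siFFluc; in A549, 8.04% against siEGFP and 10.0% against siFFluc. EGR1 rose against either control in both lines, by 0.38 to 0.54 against siEGFP. DUSP4 fell against either control in SW780, and PHLDA1 and SPRY2 against either in A549. PHLDA1 in SW780 was called against neither control alone. The other calls depended on the control. FOSL1 was higher against siFFluc alone, by 0.53 in SW780 and 0.59 in A549, and stood at -0.14 and -0.15 against siEGFP in these lines with no call. DUSP6 was lower against siEGFP alone in SW780, by -0.56 (limma, adjusted p = 0.0177), and DUSP5 against siFFluc alone in SW780, by -0.58 (adjusted p = 0.0210). DUSP1 was higher against siFFluc alone in A549 (adjusted p = 0.0186).

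Probe sets of the same gene can lie on different transcript ends, and they were also tested one by one. Of the 25, siKDM3A gave 2 higher and 6 lower in SW780, where 7.67% of all 32768 probe sets were called, and 2 higher and 7 lower in A549, where 8.08% were. DUSP5, SPRY2, SPRY4 and FOSL1 have 1 probe set each, so their values have no such cross-check. DUSP4 fell in SW780 on all 3 of its probe sets, by -0.64, -0.57 and -0.42. In A549 the brightest DUSP4 probe set, 204014_at, was at 0.11, while 226034_at fell by 0.32 (limma, adjusted p = 0.0228) and 204015_s_at was at -0.28 with no call. Accordingly the difference between lines held for 204014_at and was -0.25 and -0.14 for 226034_at and 204015_s_at, with no call.

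EGR1 rose in SW780 on 227404_s_at and on 201694_s_at, the second by 0.81 ± 0.12 (limma, adjusted p = 0.00149), and stood at 0.58 with no call on the dim 201693_s_at. In A549 the brightest probe set rose alone. The probe set 201694_s_at read 487 and 499 with siKDM3A in A549, against 620.0 and 564 with siFFluc and 519.6 and 519.8 with siEGFP. These knockdown arrays lay below all controls, with a change of -0.17 ± 0.12 that was not called, and 201693_s_at was at 0.02. For 201694_s_at the SW780 change exceeded the A549 change by 0.97 (adjusted p = 0.0181).

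PHLDA1 was negative in A549 on all 6 probe sets, between -0.19 and -0.49, and 5 of them passed the test. In SW780 the 6 disagreed, and none was called higher. The brightest, 217996_at, was at 0.21 (adjusted p = 0.0618 when tested among all probe sets), 225842_at fell by 0.29 (adjusted p = 0.0161), 218000_s_at fell by 0.51 (adjusted p = 0.0190), and the other 3 lay between -0.07 and 0.04. DUSP1 had a lower value on 201044_x_at in SW780, -0.69 (adjusted p = 0.0359), where the knockdown arrays read 67.6 and 41.4 against 65.7 to 117 in controls and so overlapped them. The DUSP6 and SPRED1 probe sets gave no call under siKDM3A in either line.

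**Figure D3:**
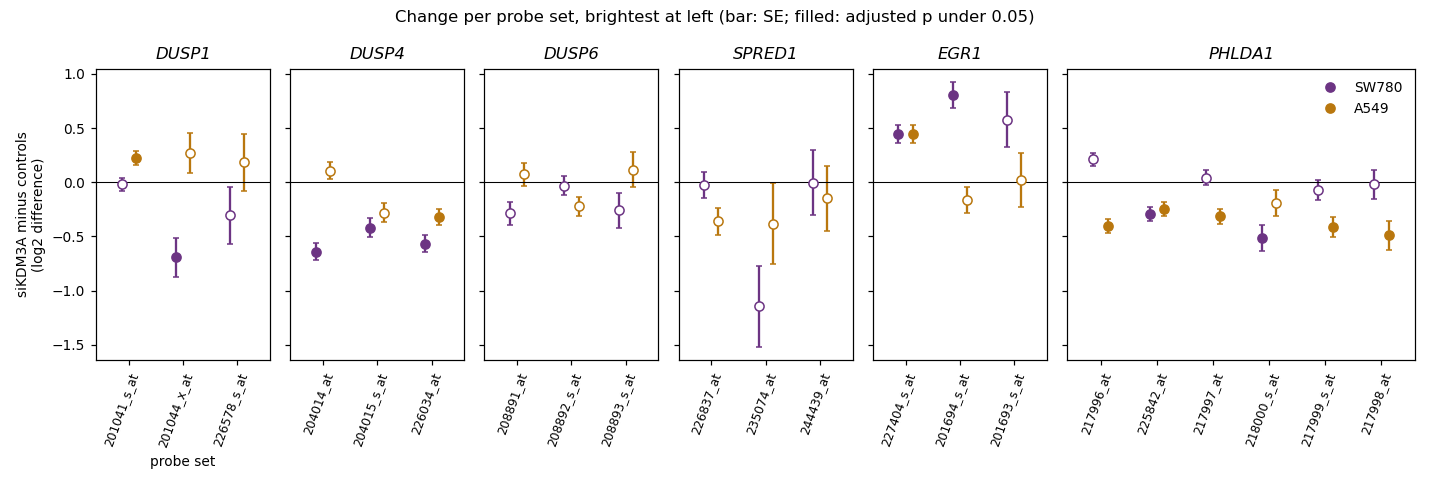
Log2 change ± SE (siKDM3A minus controls) for every probe set of the 6 genes with more than 1, brightest at left, in SW780 (left point) and A549 (right point); filled points have an adjusted p under 0.05 over 32768 probe sets. The 3 DUSP4 probe sets lie below 0 in SW780, the 6 PHLDA1 probe sets lie below 0 in A549, and the EGR1 rise in A549 appears on 227404_s_at alone.

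Lists of other genes in or around the pathway, MAP kinase phosphatases in general among them, were also read. These were chosen with earlier results of these data known, so their counts are not independent of these data. Of 14 delayed ERK targets, genes that need sustained ERK activity or its early transcription factors, 4 fell in SW780, where 6.15% of all genes did, and 8 in A549, where 6.35% did, and none rose in either line in limma (0 at an unadjusted p under 0.05). Their median change was -0.10 in SW780 and -0.33 in A549, against 0.03 and -0.02 over all genes tested. EPHA2, an ephrin receptor, fell in both lines: signals were 1364 and 1370.1 with siKDM3A for SW780, against 2162 to 2760.4 with the controls, and 992 and 876 in A549 against 1359 to 1695. The knockdown arrays were below all controls in each line, with log2 changes of -0.77 ± 0.10 and -0.67 ± 0.10 (limma, adjusted p = 4.17e-04 and 8.53e-04). CCND1, cyclin D1, fell by 0.48 in SW780 and by 0.37 in A549 (adjusted p = 0.00606 and 0.0236). ETV4, an ETS factor, fell by 1.52 in SW780 (adjusted p = 9.16e-04), where its signal was low, at 29.6 and 13.9 with siKDM3A against 74.6 to 115 in controls. TRIB1, a pseudokinase, fell by 0.37 in A549 (adjusted p = 0.00634). The A549 count was 1 without siKDM3A 2 and 2 without siKDM3A 1 of A549, 3 without siEGFP 1 or siFFluc 1 and 4 without siEGFP 2 or siFFluc 2 of A549, 4 without either siEGFP array of SW780, and 2 with arrays scaled to equal medians. The SW780 count was 2 without siKDM3A 1 of SW780. EPHA2 kept its call in every alternative in both lines, and ETV4 in SW780. The CCND1 call was lost in 2 alternatives in SW780 and in 8 in A549, and the TRIB1 call in A549 in 2.

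Of 22 other immediate-early genes tested, 1 fell in SW780, MYC, and 4 fell in A549, among them KLF4, IER3 and JUN, and none rose in limma (2 in each line at an unadjusted p under 0.05). Over all genes 6.15% fell in SW780 and 6.35% in A549. FOS, EGR4, JUNB and EGR3, named after their values were seen, had uncalled changes of either sign. FOS was at 0.71 ± 0.28 in SW780 and 0.62 ± 0.28 in A549, and EGR4 at 0.35 ± 0.29 and 0.77 ± 0.29. JUNB was at -0.35 ± 0.13 in SW780 and -0.41 ± 0.13 in A549, and EGR3 at -0.10 ± 0.34 and -0.31 ± 0.34. Of the 22, 10 were positive in SW780. KLF4, a zinc finger factor, changed by -0.53 ± 0.08, IER3, an early response gene of growth factors, by -0.38 ± 0.06 and JUN, the AP-1 partner of FOSL1, by -0.39 ± 0.09 in A549 (limma, adjusted p = 9.16e-04, 0.00142 and 0.0128). MYC changed by -0.30 ± 0.09 in SW780 (adjusted p = 0.0410). The list's median was -0.06 in SW780 and 0.04 in A549, with 13 of 22 positive in A549. With equal medians 1 of the 22 rose and 1 fell in A549, and with quantile normalization MYC in SW780 had an adjusted p of 0.0501. KLF4 kept its call in every alternative, and MYC lost it in 16. In A549 the IER3 call was lost in 2 alternatives and the JUN call in 5. IER3 was also higher with siFFluc than with siEGFP in A549, by 0.37 (limma, adjusted p = 0.0105).

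Of 5 other MAP kinase phosphatases tested, DUSP16 fell in both lines, by 0.60 in SW780 and by 0.87 in A549 (limma, adjusted p = 0.0437 and 0.00691), and DUSP10 rose by 0.29 in SW780 (adjusted p = 0.0128). DUSP16 was also higher with siFFluc than with siEGFP, by 0.76 in SW780 and 1.04 in A549 (adjusted p = 0.0459 and 0.0129); the SW780 call was lost in 18 alternatives, with adjusted p up to 0.698, and the A549 call in 6, up to 0.764. DUSP16 read 609 and 391 with siFFluc in SW780 against 322 and 245 with siEGFP, and 771 and 844 in A549 against 361 and 407.5, so its siFFluc arrays were the highest in both lines, as for DUSP5. Against siEGFP alone the knockdown change of DUSP16 was -0.22 in SW780 and -0.35 in A549, with no call (adjusted p = 0.608 and 0.352), and the SW780 call was lost in 14 alternatives in all. Of 3 other Sprouty-family genes, SPRED2 fell by 0.37 in A549 (adjusted p = 0.0175), and none was called in SW780 in limma (0 at an unadjusted p under 0.05). The SPRED2 call in A549 was lost in 6 alternatives, and the DUSP10 call in SW780 in 5.

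Upstream of ERK, the EGF-family ligand gene EREG (epiregulin) gave the largest value. It read 2246 and 2275 with siKDM3A in SW780, against 2716 and 2498 with siFFluc and 3804 and 4020.2 with siEGFP. In A549 it read 4001 and 3728 with siKDM3A, against 10315 and 9627 with siFFluc and 8874 and 7905 with siEGFP. The knockdown arrays were below every control in both lines, by log2 changes of -0.49 ± 0.07 in SW780 and -1.24 ± 0.07 in A549 (limma, adjusted p = 6.94e-04 and 2.76e-07). The SW780 change exceeded the A549 change by 0.74 (adjusted p = 0.00308). Of 5 ligand genes tested, TGFA also fell in A549, by 0.45 (adjusted p = 0.00589), and NRG1 rose by 0.25 (adjusted p = 0.0398). EREG in SW780 was not called against siFFluc alone (-0.20, adjusted p = 0.107), and its difference between lines was not called with siEGFP alone (adjusted p = 0.198). On the second-brightest probe set TGFA and NRG1 had the other sign, uncalled, and EREG was at 0.08 in SW780 and -0.51 in A549, uncalled. EREG itself was lower with siFFluc than with siEGFP in SW780, at -0.58 (limma, adjusted p = 0.00148), a call lost in 1 alternative. That gap between its controls was wider than its knockdown change of -0.49 there. Another ligand, HBEGF, was lower with siFFluc than with siEGFP in both lines, by -0.46 in SW780 and -0.64 in A549 (adjusted p = 0.0399 and 0.00908). Unlike that of FOSL1, the HBEGF call was lost in 16 alternatives in SW780 (adjusted p up to 0.193) and in 4 in A549 (up to 0.121).

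Among 9 receptors, MET fell by 0.39 in SW780 (limma, adjusted p = 0.00673) and ERBB3 rose by 0.52 in A549 (adjusted p = 0.0350). Of 11 adaptors and RAS regulators none was called in SW780 in limma (1 at an unadjusted p under 0.05), and RASA2, a RAS GTPase-activating protein, rose by 0.37 in A549 (adjusted p = 0.00649). Of 12 kinases and scaffolds, 1 rose and 2 fell in each line. Over all genes, 5.68% rose and 6.15% fell in SW780, and 5.33% rose and 6.35% fell in A549, and nothing is read from 1 or 2 calls in lists this short. LAMTOR3, the MEK1 scaffold also called MP1, rose in both, by 0.36 in SW780 and 0.54 in A549 (adjusted p = 0.00601 and 3.97e-04). IQGAP1, a scaffold of MEK and ERK, fell in both, by 0.41 in SW780 and 0.23 in A549 (adjusted p = 0.00153 and 0.0368). MAPK3, which encodes ERK1, fell by 0.65 in SW780 (adjusted p = 0.00662), and RPS6KA3, the ERK-activated kinase RSK2, fell by 0.44 in A549 (adjusted p = 0.00854). Of 7 nuclear ETS partners and repressors, ELK1 fell by 0.68 and ELK3 rose by 0.25 in SW780 (adjusted p = 0.0105 and 0.0497), and ETV6 fell by 0.46 in A549 (adjusted p = 0.0101). Of the calls in this paragraph, IQGAP1 in SW780 was the one kept in every alternative. On the second-brightest probe set ERBB3 in A549 was at -0.04, RPS6KA3 in A549 at 0.07, ELK1 in SW780 at 0.01 and LAMTOR3 in A549 at 0.10, all uncalled. Some of these genes also differed between the controls. For ERBB3 in A549, siFFluc minus siEGFP was -0.97 (limma, adjusted p = 0.00518). In SW780 it was 0.71 for ELK1 and -0.41 for LAMTOR3 (limma, adjusted p = 0.0307 and 0.0140).

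**Figure D4:**
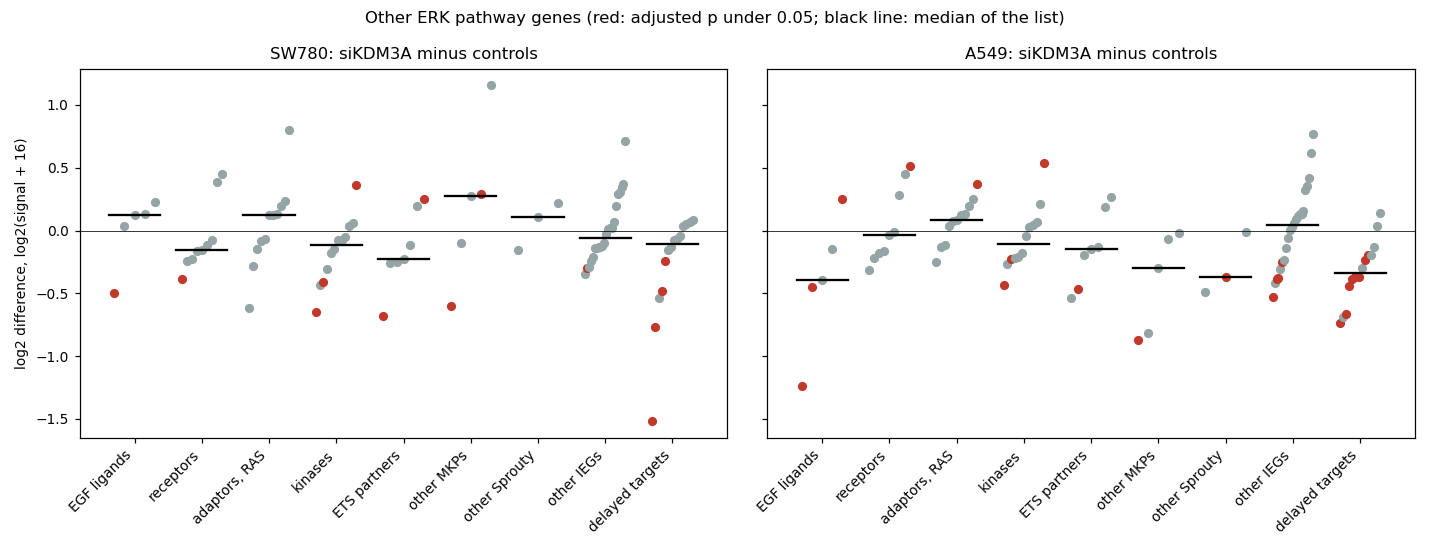
Log2 change (siKDM3A minus controls) of every tested gene in 9 lists of other genes in or around the ERK pathway, in SW780 (left) and A549 (right). Each point is 1 gene, red where the adjusted p is under 0.05, and the black bar is the median of the list. The delayed targets hold 4 red points in SW780 and 8 in A549, all below 0.

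Between the lines' control arrays, where 30.1% of all genes were higher in SW780 and 38.8% lower, the same lists were as follows. Of 14 delayed targets 3 were higher and 9 lower in SW780, with HMGA2, a chromatin protein, at -3.78, PLAUR, the urokinase receptor, at -1.80 and UPP1 at 1.05 on the log2 scale. Of 22 other immediate-early genes 4 were higher and 12 lower, with IER3 at -2.15, JUND at -1.83 and KLF6 at -1.27. Of 9 receptors 5 were higher and 3 lower, with ERBB3 at 3.83, FGFR2 at 2.11 and FGFR1 at -3.12. These 9 genes are the ones of smallest p in their lists, and every one had an adjusted p of 6.32e-10 or less in limma. Of 5 other MAP kinase phosphatases 1 was higher and 2 lower in SW780. DUSP10 was at 1.63, DUSP16 at -0.57 and DUSP8 at -1.12. The DUSP16 call was lost in 3 alternatives and the DUSP8 call in 8.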

How the data were processed

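The authors deposited linear signal intensity values made with MAS5, per the submitters' processing notes, which name no version. The trimmed mean, leaving out 2% at each end, was the same on all 12 arrays. After removal of 62 control probe sets, 54613 remained: an annotation of 2016 gave 41091 of them a single symbol, 1801 more than 1 and 11721 no symbol. Symbols were updated by gene number (41037 matched) with RefSeq, GRCh38.p14. Probe sets with a mean signal of at least the 40th percentile (33.6) were kept, 32768 in all, and the brightest stood for each of 14061 genes. Arrays give no counts, so their number limits the precision.

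Differences of log2(signal + 16), which understate the change of dim genes, were modelled by limma 3.58.1 (R 4.3.3), using 6 group means and a trended prior variance. The Benjamini-Hochberg adjustment ran over every gene of a comparison, with a threshold of 0.05. The knockdown change is siKDM3A minus the average of the siFFluc and siEGFP means of a line. Plots were made in Python 3.11.15 with matplotlib 3.10.9. The fit was also run on simulated arrays with independent noise, equal controls and no array-wide shift. That run does not cover the differing controls and array shifts seen here. Named genes are the 10 members, KDM3A, and per list and comparison up to 3 genes of smallest adjusted p past the threshold. The members and lists were chosen with earlier results of these data known. Replicate numbers did not pair the arrays. Scaling, pseudocount, filter, probe set, prior, controls, a replicate block and single arrays left out were tried as alternatives; testing every probe set separately and comparing the control difference between lines were chosen after seeing the data. DNA motifs were matched in RefSeq windows.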

Additional observations from a re-analysis of the deposited data

Results flagged for a closer look

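The response to siKDM3A differed between SW780 and A549 by a direct test for 2 members, at the brightest probe set of each. For PHLDA1 the SW780 change of 0.21 exceeded the A549 change of -0.40 by 0.61 (limma, adjusted p = 0.00499). For DUSP4 the SW780 change of -0.64 and the A549 change of 0.11 differed by -0.75 (adjusted p = 0.00553). Neither difference was called on the second-brightest probe set of its gene. For DUSP1, both siFFluc arrays lay above both siEGFP arrays in SW780 and below them in A549. The test of that difference gave 0.24 and did not pass (limma, adjusted p = 0.404).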

How the results depend on the processing

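Over 60 member results and 1440 alternatives, 1329 kept sign and side of the threshold, 45 turned the sign of a value uncalled in both settings, 40 ended a call, 22 made one and 4 turned the sign of a called result. Of 21 calls 12 held in every alternative: FOSL1 between the controls in both lines, DUSP4 and EGR1 under siKDM3A in SW780, PHLDA1 in A549, and 7 of the 9 differences between lines, all but DUSP6 and PHLDA1. The alternative on the second-brightest probe set reached the 7105 of 14061 genes that have one, and the others kept their brightest. It could not change the values of DUSP5, SPRY2, SPRY4 and FOSL1, which have 1 probe set each. The 4 reversals of called results came with the second-brightest probe set: EGR1 in A549 -0.17, PHLDA1 in SW780 -0.29, its difference in response -0.046, and its line difference 1.16. Members called under siKDM3A in A549 (4) were 2 on that probe set and between 1 and 6 with single arrays left out; in SW780 (3) they were between 2 and 4 with single arrays left out. Members with a different response (2) were 4 with equal medians, 1 on the second-brightest probe set and 0 with no trend in the prior variance (limma; 4 at an unadjusted p under 0.05), and 2 whichever array was left out. Between the controls, A549 (1) gave 2 with a pseudocount of 64 and 2 with only the arrays of the line, and 1 to 2 with arrays left out. SW780 (2) gave 1 with equal medians, 1 with quantile normalization, 1 on the second-brightest probe set, 1 with no trend and 1 with only the arrays of the line, and 1 to 3 with arrays left out. The line difference (9) was 9 whichever array was left out. With the replicate block the counts stayed at 3 in SW780, 4 in A549 and 2 for the difference; the correlation of same-numbered deviations lay between -0.03 and 0.02, so the numbers do not pair the arrays. Over all genes, calls under siKDM3A numbered 737 to 2605 in SW780 (1663) and 524 to 2620 in A549 (1642), 41 to 1934 for the difference in response (387), 148 to 1928 between controls in SW780 (783), 176 to 583 in A549 (410), and 0 to 482 for the difference between them (3, limma). With equal medians the response difference split into 118 higher and 1816 lower, against 250 and 137 as deposited, the line difference into 5025 and 4474, against 4236 and 5453, and the controls in SW780 into 178 and 234, or 192 and 251 after quantile normalization, against 418 and 365. With siFFluc 1 or with siFFluc 2 of SW780 left out, counts were higher under siKDM3A in both lines and for the difference in response. Between the SW780 controls the count was higher without siFFluc 2 and lower without siFFluc 1. The cause was not tested.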
